A study of Mus musculus with 12 samples.

Results

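The germline-encoded variable (V) segments of the immunoglobulin heavy chain (Ighv) and kappa light chain (Igkv) were measured in 12 RNA sequencing libraries of sorted mouse spleen cells. A member was any gene that the GENCODE M21 annotation classes as an immunoglobulin V gene and whose symbol begins with Ighv or Igkv. This rule gave 213 segments among the 35907 genes of the files, 113 of them heavy and 100 kappa. A B cell builds the variable domain of its receptor by joining 1 V segment to a J segment, with a D segment between them in the heavy chain, so that each B cell clone transcribes mainly the heavy and the light V segment it has joined. The V segment supplies most of the variable domain, including the first and second complementarity-determining loops. Mature T cells carry joined segments of their own receptor loci instead, and heavy and kappa V segments are not part of the T cell receptor.

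The libraries fell into 4 groups of 3, named here as they are labelled: WT Pre-Tx, TCF-1 cKO Pre-Tx, WT Post-Tx and TCF-1 cKO Post-Tx. TCF-1 cKO mice carry floxed alleles of Tcf7, the gene of the transcription factor TCF-1, and a Cre driven by Cd4, which acts in the T lineage from the double-positive thymocyte stage on and so reaches CD8 as well as CD4 T cells. Pre-Tx cells were sorted from donor spleens, and Post-Tx cells were donor cells recovered by sorting from spleens of BALB/c recipients, which had been lethally irradiated, 7 days after transplant of donor CD3 T cells. Recipients also received WT bone marrow depleted of T cells, per the transplant methods of the study, and donors were on a C57BL/6 background. The labels call all cells CD4 T cells, whereas 1 passage of the methods names CD8 T cells for the Post-Tx sort. Cd4 stood at 706 to 1159.9 CPM (estimated counts of a gene scaled to 1000000 counts in the library) and Cd8a at 1.04 to 15.4 CPM in the Post-Tx libraries. In every WT Pre-Tx library Cd8a was above Cd4 (130 to 166 CPM, with Cd4 at 68.5 to 151 CPM). In TCF-1 cKO Pre-Tx they were close (Cd8a 71.1 to 81.4 and Cd4 65.2 to 86.3 CPM). These 2 genes thus do not bear out the CD4 label before transplant. The labels number 3 biological replicates a group without saying which animals each holds, so that p-values measure the spread between these libraries.

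These 4 segments are shown first because the results turn on them, either by the size of their difference between genotypes or by the share they took of a library. Capitals mark the codon of the conserved cysteine near the 3′ end of the V exon, found as the last run that reads tyrosine, tyrosine or phenylalanine, cysteine, which 206 of the 213 members hold within 60 bases of their 3′ end. All sequences are the GENCODE M21 transcripts (GRCm38), 120 bases from the second of 2 exons.
Igkv7-33: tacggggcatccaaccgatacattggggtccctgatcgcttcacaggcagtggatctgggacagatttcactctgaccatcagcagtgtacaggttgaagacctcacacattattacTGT
Ighv8-5: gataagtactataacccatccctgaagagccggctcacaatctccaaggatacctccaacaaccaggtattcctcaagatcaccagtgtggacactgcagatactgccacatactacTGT
Ighv3-8: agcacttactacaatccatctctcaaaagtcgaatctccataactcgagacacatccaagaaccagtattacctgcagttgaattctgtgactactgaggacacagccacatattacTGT
Igkv16-104: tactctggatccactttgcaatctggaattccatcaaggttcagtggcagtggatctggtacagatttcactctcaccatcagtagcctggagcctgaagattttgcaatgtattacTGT
Igkv7-33 lies at chr6:70058655-70058774 on the minus strand, Ighv8-5 at chr12:115067570-115067689 on the minus strand, Ighv3-8 at chr12:114322382-114322501 on the minus strand and Igkv16-104 at chr6:68425929-68426048 on the plus strand. Of the 31-base words in these transcripts, 92.6% were found in no transcript of another gene for Igkv7-33, 92.3% for Ighv3-8 and 99.7% for Igkv16-104, but 41.8% for Ighv8-5.

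Other segments that led a library had a near copy. These pairs are shown because their counts may have been split by the pseudoalignment, and capitals mark the bases at which the 2 segments of a pair differ.
Ighv1-55: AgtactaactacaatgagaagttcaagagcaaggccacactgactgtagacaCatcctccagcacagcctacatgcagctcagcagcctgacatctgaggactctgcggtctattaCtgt
Ighv1-53: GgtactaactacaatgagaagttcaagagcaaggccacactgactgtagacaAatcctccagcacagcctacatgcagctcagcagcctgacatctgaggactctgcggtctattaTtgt
Igkv4-59: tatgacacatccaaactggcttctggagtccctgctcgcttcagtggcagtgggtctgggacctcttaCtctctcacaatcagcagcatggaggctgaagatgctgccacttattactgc
Igkv4-70: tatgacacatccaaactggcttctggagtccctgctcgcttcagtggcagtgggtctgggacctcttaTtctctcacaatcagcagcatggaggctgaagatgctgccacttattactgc
Igkv3-7: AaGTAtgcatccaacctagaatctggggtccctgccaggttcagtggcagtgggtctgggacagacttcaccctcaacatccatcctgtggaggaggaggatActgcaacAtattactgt
Igkv3-12: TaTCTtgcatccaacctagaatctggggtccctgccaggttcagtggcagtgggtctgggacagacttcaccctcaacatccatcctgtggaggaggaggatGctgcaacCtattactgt
Ighv1-55 lies at chr12:115208101-115208220 and Ighv1-53 at chr12:115158409-115158528, both on the minus strand. Igkv4-59 lies at chr6:69438243-69438362 and Igkv4-70 at chr6:69267909-69268028, both on the minus strand, and Igkv3-7 at chr6:70607894-70608013 and Igkv3-12 at chr6:70518707-70518826, both on the plus strand. Within these 120 bases Ighv1-55 and Ighv1-53 differ at 3 positions, Igkv4-59 and Igkv4-70 at 1, and Igkv3-7 and Igkv3-12 at 6. The share of 31-base words found nowhere else was 44.7% for Ighv1-55, 13.0% for Igkv4-59 and 37.1% for Igkv3-7. Over all members its median was 55.6% for heavy and 52.4% for kappa segments, and at least 50% of words were unique in 66 heavy and 55 kappa segments. Values of single segments with a near copy are uncertain for this reason, whereas the sum over a locus does not depend on how reads were split among its members. Reads split with genes outside the member set, such as V pseudogenes, could still move that sum.

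Libraries held 17103415 to 49486745 estimated counts. Tcf7 summed over all its transcripts overlapped between the genotypes at both stages, 112 to 197 CPM in the Pre-Tx and 109 to 170 CPM in the Post-Tx libraries, and such a sum need not show the loss of a floxed part, so that genotypes rest on the labels. The labelled cell type was also checked. T cell genes were detected in all libraries, with Cd3e, which signals for the T cell receptor, at 105 to 309 CPM in Pre-Tx and 459 to 771 CPM in Post-Tx. Cd79a, the gene of a chain that signals for surface immunoglobulin in B cells, was above Cd3e in all 6 Pre-Tx libraries (2048 to 2556 CPM) and near 0 in Post-Tx (1.46 to 3.58 CPM). The sum of 15 B cell markers exceeded that of 8 T cell markers in every Pre-Tx library, which goes against the labelled cell type. The sum of 5 myeloid markers, led by Lyz2 before transplant, was also above that of T cell markers in every Pre-Tx library (2454 to 3562 against 1155 to 2547 CPM). Fewer cells of a type and less RNA per cell cannot be told apart in such bulk samples.

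Before transplant, V segments were abundant in both genotypes. Their summed counts took 0.249% to 0.409% of all counts in the 6 Pre-Tx libraries and 0.0123% to 0.0215% in the 6 Post-Tx libraries. The summed heavy level was 1032, 820.4 and 952 CPM in TCF-1 cKO Pre-Tx replicates 1 to 3, and 1026, 730.1 and 1118 CPM in WT Pre-Tx. The summed kappa level was 2237, 2495 and 2507 CPM for TCF-1 cKO Pre-Tx compared with 2425, 1760.1 and 2971 CPM for WT Pre-Tx. The genotypes overlapped in both sums. The difference of TCF-1 cKO minus WT was -0.02 on the log2 scale for heavy (p = 1) and 0.05 for kappa (p = 0.8) by an exact two-sided permutation test, in which 3 against 3 libraries cannot go below 0.1.

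At day 7 both sums were far lower. The heavy sum was 68.3, 67.9 and 71.9 CPM for TCF-1 cKO Post-Tx compared with 53.3, 33.6 and 33.5 CPM for WT Post-Tx, so that every TCF-1 cKO library was above every WT library. The kappa sum was 124, 79.3 and 143 CPM for TCF-1 cKO Post-Tx compared with 104, 89.3 and 104 CPM for WT Post-Tx, and these overlapped. The mean of log2 CPM fell by 4.17 for heavy and by 4.49 for kappa with transplant, within genotype and in all libraries (adjusted p = 0.024 for each, exact permutation over 400 arrangements, Benjamini-Hochberg over 24 tests). In TCF-1 cKO the heavy sum was 13.4-fold and the kappa sum 21.5-fold higher before than after transplant. In WT these folds were 24.1 and 23.6. The heavy difference between genotypes at day 7 was 0.82 on the log2 scale (p = 0.1, the smallest that an exact test of 3 against 3 can give, adjusted p = 0.171), and the kappa difference was 0.18 (p = 0.5, exact permutation).

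**Figure D1:**
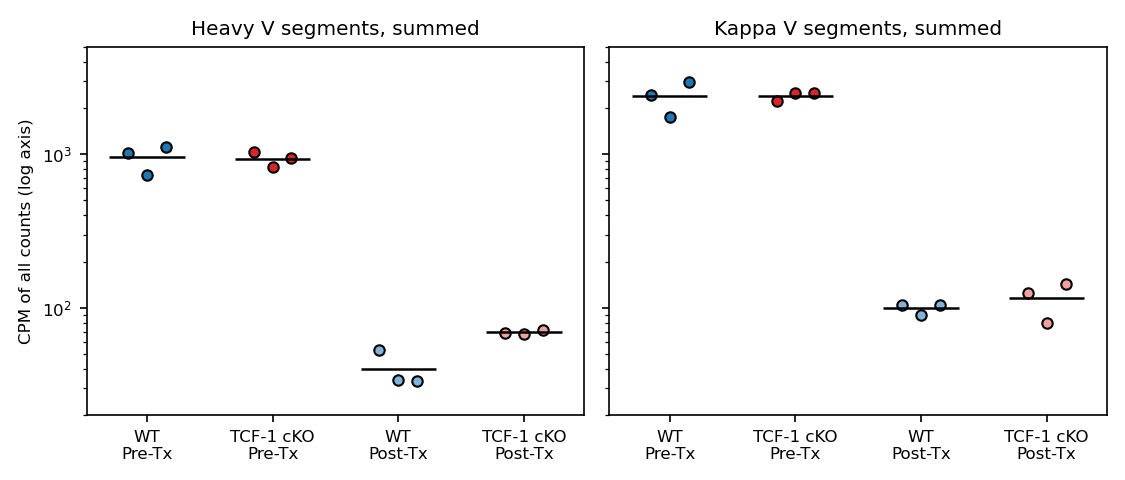
Summed heavy (left) and kappa (right) V segment level in CPM on a logarithmic axis for the 4 groups, with 1 point per library and a line at the mean of the 3 libraries. All 6 Pre-Tx libraries lie between 730.1 and 2971 CPM and all 6 Post-Tx libraries between 33.5 and 143 CPM, with the TCF-1 cKO Post-Tx heavy sums above those of WT Post-Tx.

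Scaling moved the day 7 values. With TMM factors of all 12 libraries, which shifted TCF-1 cKO against WT by -0.40 on the log2 scale after transplant and by 0.01 before, the heavy difference at day 7 was 0.43 (p = 0.4, exact permutation) and the kappa difference was -0.22 (p = 0.5, exact permutation). The heavy difference thus kept its direction at a smaller size, while the kappa difference changed sign.

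V pseudogenes of the same loci, which encode no functional chain, give a level to set beside these sums. Per kb of transcript, heavy segments stood at 17.7 to 27.1 CPM in the Pre-Tx libraries. The 70 heavy pseudogenes stood at 0.144 to 0.246 CPM per kb in TCF-1 cKO Pre-Tx and, higher, at 0.258 to 0.573 in WT Pre-Tx. Kappa segments stood at 48.0 to 81.1 CPM per kb and the 60 kappa pseudogenes at 0.253 to 0.709 CPM per kb, where the genotypes overlapped. In the Post-Tx libraries the margin was narrower. Heavy segments stood at 1.65, 1.65 and 1.74 CPM per kb in TCF-1 cKO Post-Tx, with heavy pseudogenes at 0.275, 0.746 and 0.480, and at 1.29, 0.814 and 0.812 in WT Post-Tx, with pseudogenes at 0.0997, 0.185 and 0.0937 CPM per kb. The pseudogene level, like the heavy sum, was thus higher in every TCF-1 cKO than in every WT Post-Tx library. So was that of the kappa pseudogenes (0.171 to 0.389 against 0.0457 to 0.102 CPM per kb). The 1135 olfactory receptor genes, which encode odour receptors of the nose, were ordered likewise, at 1.21, 3.25 and 1.63 CPM per kb for TCF-1 cKO Post-Tx compared with 0.395, 0.848 and 0.294 for WT Post-Tx, and in replicate 2 of both Post-Tx groups they stood above the heavy segments. The sum of 5 myeloid markers was also higher in every TCF-1 cKO than in every WT Post-Tx library (747 to 1115 against 505 to 583 CPM), although no marker of this list passed edgeR's test at day 7. Before transplant the olfactory receptor genes were instead lower in every TCF-1 cKO library (0.237 to 0.418 against 0.683 to 1.90 CPM per kb), as the heavy pseudogenes were. The part of any of these genes in the heavy difference was not tested. With the pseudogene level per kb taken off each segment the heavy difference at day 7 was 0.66 on the log2 scale (p = 0.2, exact permutation).

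Relative to B cell markers, V segments were higher after transplant than before. The sum of 15 B cell markers was 11296 to 12099 CPM for TCF-1 cKO Pre-Tx compared with 8536 to 10160.1 CPM for WT Pre-Tx, and 89.7 to 165 and 61.8 to 119 CPM in the Post-Tx groups. V segment counts per B cell marker count were 0.270, 0.293 and 0.306 for TCF-1 cKO Pre-Tx compared with 0.383, 0.245 and 0.479 for WT Pre-Tx. They were 2.15, 0.893 and 1.73 for TCF-1 cKO Post-Tx compared with 1.95, 1.03 and 2.23 for WT Post-Tx, above every Pre-Tx library. This ratio rose by 2.29 on the log2 scale with transplant (adjusted p = 0.024, exact permutation over 400 arrangements), 5.16-fold in TCF-1 cKO and 4.64-fold in WT. Between genotypes it overlapped before transplant (log2 difference -0.30, p = 0.4), where the difference was -0.56 without WT replicate 2 (p = 0.1, no overlap), -0.08 without WT replicate 3 and -0.08 from TPM, or at day 7 (-0.14, p = 0.6, exact permutation for all). By edgeR's quasi-likelihood test with Benjamini-Hochberg adjustment, 7 of the 15 B cell markers were higher in TCF-1 cKO before transplant (8.52% of all genes). The others did not pass, and at day 7 no B cell marker passed (6.65% of all genes in either direction). Of the 8 T cell markers 5 were lower in TCF-1 cKO before transplant and 7 at day 7 (5.65% and 3.13% of all genes). Their sum was 1155 to 1281 against 2163 to 2547 CPM before transplant and 4487 to 4831 against 6223 to 7183 CPM at day 7. Before transplant 2 other sums were lower in every TCF-1 cKO library. That of 4 germinal centre markers, led by S1pr2, was 8.94 to 17.3 against 31.5 to 50.4 CPM. That of 7 recombination and pre-B markers, led by Vpreb3, was 66.3 to 82.7 against 108 to 139 CPM. Only S1pr2 of these markers passed before transplant (adjusted p = 0.0263, edgeR). At day 7 the pre-B sum was higher in TCF-1 cKO (4.25 to 11.5 against 1.96 to 3.59 CPM). Jchain, which joins the units of secreted IgM and IgA, stood at 151 to 283 CPM in Pre-Tx and at 11.1 to 34.9 CPM in Post-Tx, and Mzb1, a chaperone of antibody-secreting cells, at 230.0 to 380.0 CPM and 0.148 to 2.27 CPM. The part of any of these cells in the V segment levels was not tested. Xbp1, a factor of secretory cells that T cells also express, stood at 142 to 219 CPM in Post-Tx and 160 to 231 CPM in Pre-Tx. Prdm1, a transcription factor of plasma cells and of activated T cells, was higher in every Post-Tx than in every Pre-Tx library (21.6 to 37.8 against 1.32 to 18.5 CPM), so that the 10 plasma cell markers did not move as one. Relative to the sum of these 10 markers, which includes Xbp1 and Prdm1, V segments were lower after transplant. Most of that sum at day 7 (458 to 540 CPM) was Txndc5 (183 to 281 CPM) and Xbp1. Mzb1 alone fell further than V segments did, so that this direction depends on the markers summed. V segment counts per plasma cell marker count were 2.32 to 3.53 in Pre-Tx and 0.228 to 0.449 in Post-Tx, given without a test.

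Kappa exceeded heavy counts in all 12 libraries. The ratio of kappa to heavy counts was 2.17, 3.04 and 2.64 for TCF-1 cKO Pre-Tx, 2.36, 2.41 and 2.66 for WT Pre-Tx, and after transplant 1.82, 1.17 and 1.99 for TCF-1 cKO Post-Tx compared with 1.96, 2.66 and 3.11 for WT Post-Tx. At day 7 the log2 ratio of TCF-1 cKO minus WT differed by -0.65, but WT replicate 1 lay among the TCF-1 cKO values (p = 0.2, exact permutation).

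Counts were spread over many segments before transplant and over fewer after it. For heavy segments in TCF-1 cKO, however, the libraries of both stages overlapped by the measure used here. Evenness was taken as the effective number of segments, the exponential of the Shannon entropy of the shares, which equals the number of segments that would give the same entropy at equal shares. For heavy segments it was 31.9, 44.2 and 51.2 for TCF-1 cKO Pre-Tx compared with 52.5, 63.4 and 59.1 for WT Pre-Tx. For kappa segments it was 35.5, 40.3 and 46.0 for TCF-1 cKO Pre-Tx compared with 51.2, 56.9 and 49.5 for WT Pre-Tx. Every TCF-1 cKO library was thus below every WT library at both loci by this measure. The group means were 42.4 ± 9.76 against 58.3 ± 5.48 for heavy and 40.6 ± 5.27 against 52.5 ± 3.85 for kappa (SD, n = 3, exact permutation p = 0.1 for each, the smallest possible, adjusted p = 0.171). At a common depth of 14374 heavy and 34658 kappa counts the differences were -15.9 and -11.9, as without it. With the pseudogene level per kb taken off each segment they were -15.2 and -11.7 (p = 0.1 for each, exact permutation). By inverse Simpson, which weighs large shares more, kappa overlapped between the genotypes, with TCF-1 cKO replicate 3 at 33.5 and WT replicate 3 at 32.03 (p = 0.2, exact permutation). Over segments with at least 50% unique words the differences were -8.79 for heavy and -6.59 for kappa (p = 0.1 for each), and over families -0.608 (p = 0.1) and -0.0883 (p = 0.8, exact permutation for all).

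After transplant the order of the genotypes was the other way round, though whether the genotype difference itself differed between stages was not tested for evenness. The effective number of heavy segments was 31.9, 40.2 and 42.1 for TCF-1 cKO Post-Tx compared with 22.9, 35.6 and 24.9 for WT Post-Tx, which overlapped (p = 0.2, exact permutation). That of kappa segments was 28.6, 30.7 and 23.4 for TCF-1 cKO Post-Tx compared with 16.6, 16.7 and 17.9 for WT Post-Tx, with no overlap (p = 0.1, the smallest possible, exact permutation, adjusted p = 0.171). At a common depth of 912 heavy and 1832 kappa counts the differences were 9.93 and 10.6. With the pseudogene level per kb taken off each segment they were 4.33 (p = 0.2) and 7.34 (p = 0.1, exact permutation for both). The separation of kappa at day 7 was lost by inverse Simpson (difference 4.32, p = 0.2), over segments with at least 50% unique words (2.58, p = 0.2) and over families (0.597, p = 0.6, exact permutation for all). With transplant the effective number fell by 24.2 for kappa (adjusted p = 0.024) and fell by 17.5 for heavy (adjusted p = 0.080, exact permutation over 400 arrangements). At the common depth it fell by 23.2 for kappa (adjusted p = 0.024) and fell by 15.4 for heavy (adjusted p = 0.120, exact permutation). The heavy mean went from 58.3 to 27.8 in WT, but from 42.4 to 38.1 in TCF-1 cKO, where the stages overlapped. At the common depth these means were 55.3 and 27.4 in WT, and 40.3 and 37.3 in TCF-1 cKO. The kappa mean went from 52.5 to 17.1 in WT and from 40.6 to 27.6 in TCF-1 cKO.

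**Figure D2:**
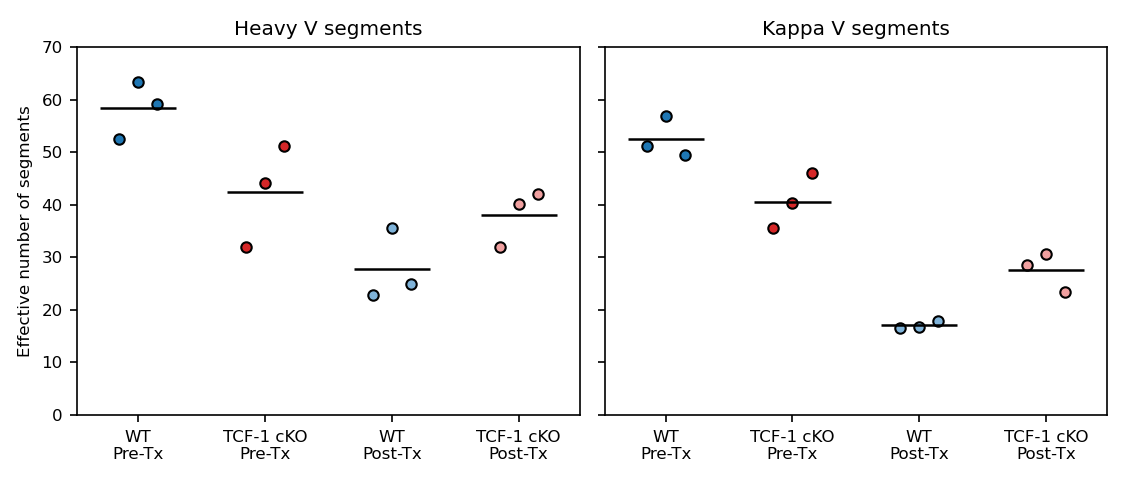
Effective number of heavy (left) and kappa (right) V segments in the 4 groups, with 1 point per library and a line at the mean of the 3 libraries. TCF-1 cKO lies below WT before transplant, 31.9 to 51.2 against 52.5 to 63.4 for heavy, and above it at day 7 for kappa, 23.4 to 30.7 against 16.6 to 17.9, a separation lost by inverse Simpson.

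The number of leading segments that held 50% of the counts was lower in TCF-1 cKO before transplant, with a tie at 14 for heavy, and overlapped between the genotypes at day 7. It was 7, 12 and 14 heavy segments for TCF-1 cKO Pre-Tx compared with 14, 18 and 17 for WT Pre-Tx, and 7, 9 and 10 for TCF-1 cKO Post-Tx compared with 6, 8 and 6 for WT Post-Tx. For kappa it was 10, 11 and 12 for TCF-1 cKO Pre-Tx, 14, 16 and 14 for WT Pre-Tx, and after transplant 6, 7 and 5 for TCF-1 cKO Post-Tx compared with 4, 3 and 6 for WT Post-Tx. At least 3 counts were found for 91 to 100 heavy and 93 to 99 kappa segments in each Pre-Tx library, against 41 to 67 and 40 to 67 in each Post-Tx library. The depths differed, since 911 to 2637 heavy counts stood behind a Post-Tx library and 14377 to 22784 behind a Pre-Tx library. At 912 heavy counts 78.0 to 88.7 segments were expected in the Pre-Tx and 53.8 to 80.1 in the Post-Tx libraries, and at 1832 kappa counts 83.5 to 87.7 and 46.9 to 76.1.

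**Figure D3:**
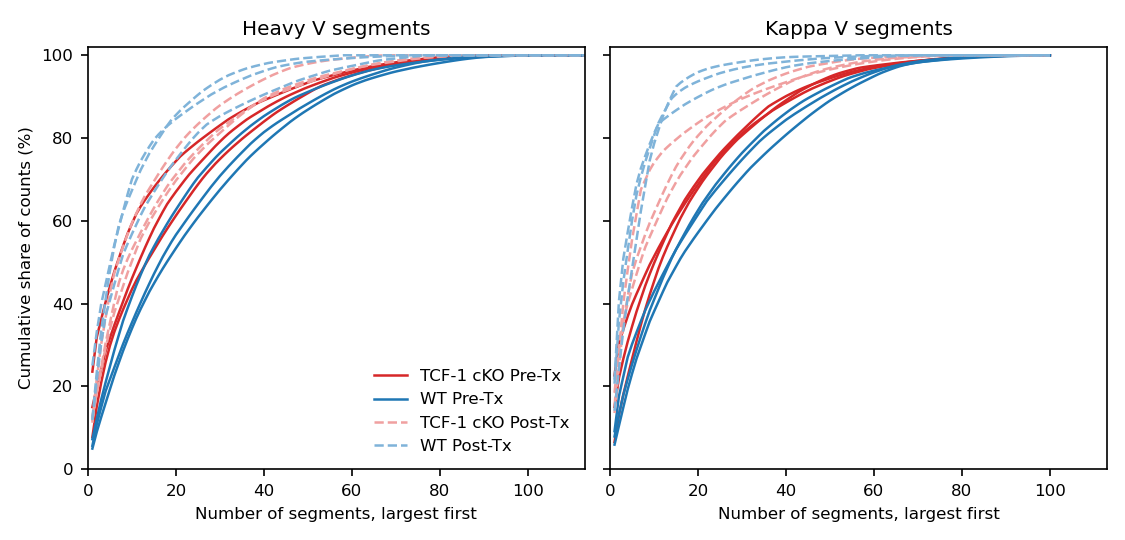
Cumulative share of the heavy (left) and kappa (right) counts in percent against the number of segments taken, largest first, with 1 line per library, solid for Pre-Tx and dashed for Post-Tx. The lines of WT Pre-Tx rise slowest and those of WT Post-Tx fastest for kappa, where the first 10 segments held 38.1% to 42.9% of counts in WT Pre-Tx and 78.7% to 81.2% in WT Post-Tx.

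In WT Pre-Tx no segment dominated. The largest heavy shares were those of Ighv1-78 at 7.22% in replicate 1, Ighv1-64 at 4.95% in replicate 2 and Ighv1-55 at 5.64% in replicate 3. The largest kappa shares were those of Igkv6-32 at 7.87% in replicate 1 and of Igkv6-15 at 5.91% and 9.16% in replicates 2 and 3. Igkv6-15 was also abundant in every TCF-1 cKO Pre-Tx library (7.87%, 3.71% and 4.93%), and Igkv6-23 and Igkv1-117 were among the 5 largest mean kappa shares of WT Pre-Tx, at 3.81% to 8.44% and 3.58% to 4.76%. Ighv5-4 and Ighv9-3 completed the leading heavy segments of WT Pre-Tx, at 1.93% to 5.18% and 3.02% to 3.91%.

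In 2 of the 3 TCF-1 cKO Pre-Tx libraries single segments stood out, and they were different ones. In replicate 1 Ighv1-55 took 23.6% of heavy counts and Igkv16-104 took 22.6% of kappa counts. These segments took 2.39% to 4.37% and 1.62% to 2.79% in the other TCF-1 cKO Pre-Tx libraries, and 2.49% to 5.64% and 0.837% to 3.61% in WT Pre-Tx. In replicate 2 Ighv3-8 took 14.98% of heavy and Igkv3-7 took 15.03% of kappa counts, against 0.449% and 0.918%, and 0.457% and 1.47%, in replicates 1 and 3. In replicate 3 the largest were Ighv1-66 at 7.71% and Igkv6-23 at 6.56%, close to the largest of WT Pre-Tx. With the largest segment of each library left out, the effective number stayed lower in TCF-1 cKO Pre-Tx, by a smaller difference of -9.01 for heavy and -6.41 for kappa (p = 0.1 for each, exact permutation). Ighv6-3 was above every WT Pre-Tx library in all 3 (39.5, 35.9 and 70.8 CPM against 16.7, 24.7 and 23.3 CPM), with a log2 fold change of 1.12 that missed the threshold (standard error 0.36, adjusted p = 0.0573, edgeR).

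At day 7 the leading segments differed between the libraries of a group, and some led libraries of both genotypes. Ighv1-9 took 25.02% of heavy counts in WT Post-Tx replicate 1 and 11.7% in TCF-1 cKO Post-Tx replicate 3, and was at 0 in TCF-1 cKO Post-Tx replicate 1. Those same libraries shared their leading kappa segments. Igkv4-59 took 20.6% and Igkv14-126 took 14.98% of kappa counts in WT Post-Tx replicate 1, and 13.6% and 15.1% in TCF-1 cKO Post-Tx replicate 3. Igkv14-126 was at 1.04% or less in the other 4 Post-Tx libraries.

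Other leading segments were shared in part. Igkv8-30 took 13.5% in TCF-1 cKO Post-Tx replicate 1 and 14.1% in WT Post-Tx replicate 3, and Ighv9-3 took 11.2% and 12.1% in the same libraries. Igkv1-110 took 21.6% in WT Post-Tx replicate 2 and 10.5% in TCF-1 cKO Post-Tx replicate 2. In WT Post-Tx replicate 2 Igkv4-68 took 19.0%, Igkv7-33 took 10.3% and Ighv7-1 took 11.9%, and in TCF-1 cKO Post-Tx replicate 2 Igkv8-24 took 18.4% and Ighv5-17 took 12.6%. The remaining shares above 10% were those of Igkv6-15 (11.1%), Igkv11-125 (10.6%) and Ighv9-1 (10.7%) in TCF-1 cKO Post-Tx replicate 1, of Igkv1-135 (11.4%) in TCF-1 cKO Post-Tx replicate 3, and of Ighv10-1 (11.3%), Ighv5-4 (10.01%) and Igkv14-100 (10.004%) in WT Post-Tx replicate 3.

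**Figure D4:**
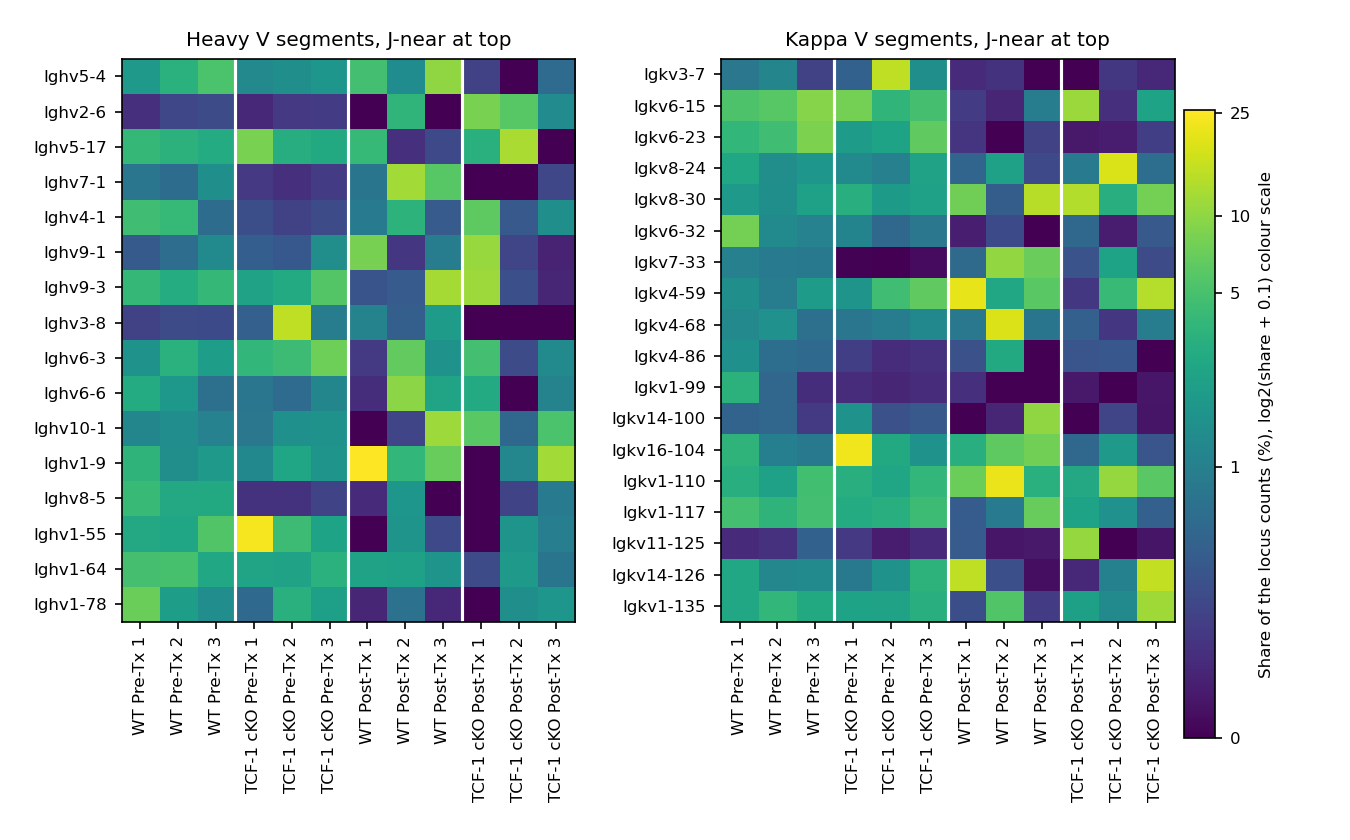
Share of the heavy (left) and kappa (right) counts in percent, on a log2(share + 0.1) colour scale, of the 34 segments named by rule, ordered from the J-near to the J-far end, in the 12 libraries. Colours are alike across the WT Pre-Tx columns, whereas bright cells in the Post-Tx columns change from library to library, and Igkv7-33 and Ighv8-5 are dark in all TCF-1 cKO Pre-Tx columns.

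The overlap of segment use between libraries, taken as the summed smaller share over all segments, describes this in full. Between WT Pre-Tx libraries 68.3% to 76.6% of heavy and 70.2% to 76.6% of kappa use was shared. Between TCF-1 cKO Pre-Tx libraries it was 55.9% to 62.0% and 59.1% to 67.0%, and between genotypes before transplant 54.3% to 66.7% and 61.8% to 74.9%. Between WT Post-Tx libraries it was 25.4% to 32.3% and 27.2% to 27.6%, and between TCF-1 cKO Post-Tx libraries 32.4% to 40.1% and 33.0% to 33.8%. The highest overlap after transplant was across genotypes, 54.4% of kappa use in WT Post-Tx replicate 1 and TCF-1 cKO Post-Tx replicate 3. Pearson's r of log2(share + 0.01) over the 113 heavy segments was 0.77 to 0.88 between Pre-Tx and -0.02 to 0.40 between Post-Tx libraries, and over the 100 kappa segments 0.77 to 0.90 and 0.30 to 0.47. These pairs share libraries and reference, differ in depth and carry no test. Among segments with a group mean of at least 1 CPM, the median share of a segment's CPM that came from 1 library of its group was 50.9% for heavy and 44.8% for kappa in TCF-1 cKO before transplant, and 48.8% and 47.7% in WT. At day 7 it was 74.3% and 74.1% in TCF-1 cKO, and 78.6% and 91.3% in WT. A single library held over 80% of the CPM in 15 of 24 such kappa segments of WT Post-Tx and in 1 of 89 of WT Pre-Tx.

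Single segments were compared between genotypes before transplant with edgeR's quasi-likelihood test over all genes. Of the 213 segments 181 passed the filter on low counts. Of these 9 were called at an adjusted p under 0.05, 4.97% against 14.2% of all 17021 genes tested, 1 of them higher in TCF-1 cKO (8.52% of all genes) and 8 lower (5.65%). The median log2 fold change over the segments tested was -0.26, and -0.11 over all genes. Levels did not overlap between the genotypes for 25 of the 181 segments, 13.8% against 41.4% of all genes. The share of segments called was thus below that of all genes in this fit, a comparison given without a test. The order turned round without a filter (24 of 211 segments against 10.9% of all genes). It did so too without TCF-1 cKO replicate 1 (7 of 186 against 2.71%) and without WT replicate 1 (1 of 184 against 0.0787%). In the other settings tried the share of segments stayed below.

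The largest difference was that of Igkv7-33, the only member of its family among the kappa segments. It had 0.0497, 0 and 0.42 CPM for TCF-1 cKO Pre-Tx compared with 24.95, 15.19 and 25.19 CPM for WT Pre-Tx, that is 11 counts in all against 1180. Its log2 fold change was -7.11 (standard error 0.96, adjusted p = 0.0055, edgeR), and the ratio of pooled CPM was 137-fold with an exact 95% interval of 76.2 to 275 that covers counting error only. The segments on either side were present in TCF-1 cKO. Igkv6-32, 15.4 kb nearer to J, had 25.3, 13.4 and 20.1 CPM for TCF-1 cKO Pre-Tx compared with 191, 23.0 and 31.7 CPM for WT Pre-Tx (log2 fold change -2.01, adjusted p = 0.0516, edgeR). Igkv8-34, 14.5 kb farther from J, had 1.19, 3.54 and 0.629 CPM against 1.41, 4.17 and 1.52 CPM (log2 fold change -0.44, adjusted p = 0.755, edgeR). At day 7 Igkv7-33 stood at 0.391, 1.90 and 0.374 CPM in TCF-1 cKO and at 0.609, 9.19 and 7.35 CPM in WT, which overlapped (adjusted p = 0.0552, edgeR).

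Ighv8-5 followed, with 1.31, 1.04 and 1.99 CPM for TCF-1 cKO Pre-Tx compared with 42.5, 20.01 and 31.5 CPM for WT Pre-Tx (log2 fold change -4.46, standard error 0.50, adjusted p = 0.00419, edgeR). Its difference kept its call under all 14 alternatives tried. Its neighbour on the far side, Ighv1-50, had 13.6, 8.41 and 14.5 CPM against 8.92, 11.9 and 6.97 CPM, which overlapped. Ighv4-1, the only member of its family, had 2.87, 1.63 and 2.54 CPM for TCF-1 cKO Pre-Tx compared with 47.4, 29.5 and 6.85 CPM for WT Pre-Tx (log2 fold change -3.54, standard error 0.63, adjusted p = 0.0105, edgeR). Igkv4-86 had 3.96, 2.52 and 2.99 CPM against 36.6, 11.3 and 16.7 CPM (log2 fold change -2.76, standard error 0.53, adjusted p = 0.0126, edgeR), a call lost with all 12 libraries in 1 fit (adjusted p = 0.0747, edgeR). Igkv1-99 had 2.33, 2.02 and 2.59 CPM against 83.5, 9.22 and 3.11 CPM, with -3.70 as the log2 fold change (adjusted p = 0.0265 and standard error 0.93, edgeR). Its WT counts came mostly from replicate 1, and without that library its log2 fold change was -1.49 (adjusted p = 0.246, edgeR). The call for Igkv1-99 was also lost without any 1 of the TCF-1 cKO libraries (adjusted p 0.063 to 0.0765, edgeR), with voom and limma (adjusted p = 0.108) and with limma on log2(TPM + 1) (adjusted p = 0.123).

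Ighv3-8 was the segment called higher in TCF-1 cKO Pre-Tx. It had 4.64, 123 and 8.73 CPM in TCF-1 cKO and 2.07, 1.90 and 2.75 CPM in WT, and replicate 2 is the library in which it led the heavy counts. All 3 TCF-1 cKO libraries were above all 3 WT libraries (log2 fold change 4.30, standard error 1.05, adjusted p = 0.0238, edgeR), but without replicate 2 the call was lost (log2 fold change 1.57, adjusted p = 0.193, edgeR). It was lost too without any 1 of the WT libraries (adjusted p 0.0676 to 0.105, edgeR), and with voom and limma (log2 fold change 3.03, adjusted p = 0.135). At day 7 Ighv3-8 had 0 counts in all 3 TCF-1 cKO libraries and 0.588, 0.148 and 0.684 CPM in WT, which is at least 3.11-fold higher in WT against a floor of 3 counts per library and was too low to be tested. Igkv3-7, which led the kappa counts of the same library, had 10.2, 375 and 36.9 CPM against 19.3, 20.03 and 5.96 CPM and missed the threshold (adjusted p = 0.0504, edgeR). Ighv7-1, Ighv1-85 and Ighv1-76 were also called lower. Ighv1-85 and Ighv1-76 were named after their values were seen, with log2 fold changes of -2.19 and -1.69. Ighv7-1 had 1.54, 0.932 and 1.55 CPM for TCF-1 cKO Pre-Tx compared with 7.98, 4.47 and 16.7 CPM for WT Pre-Tx (log2 fold change -2.94, adjusted p = 0.0235, edgeR).

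**Figure D5:**
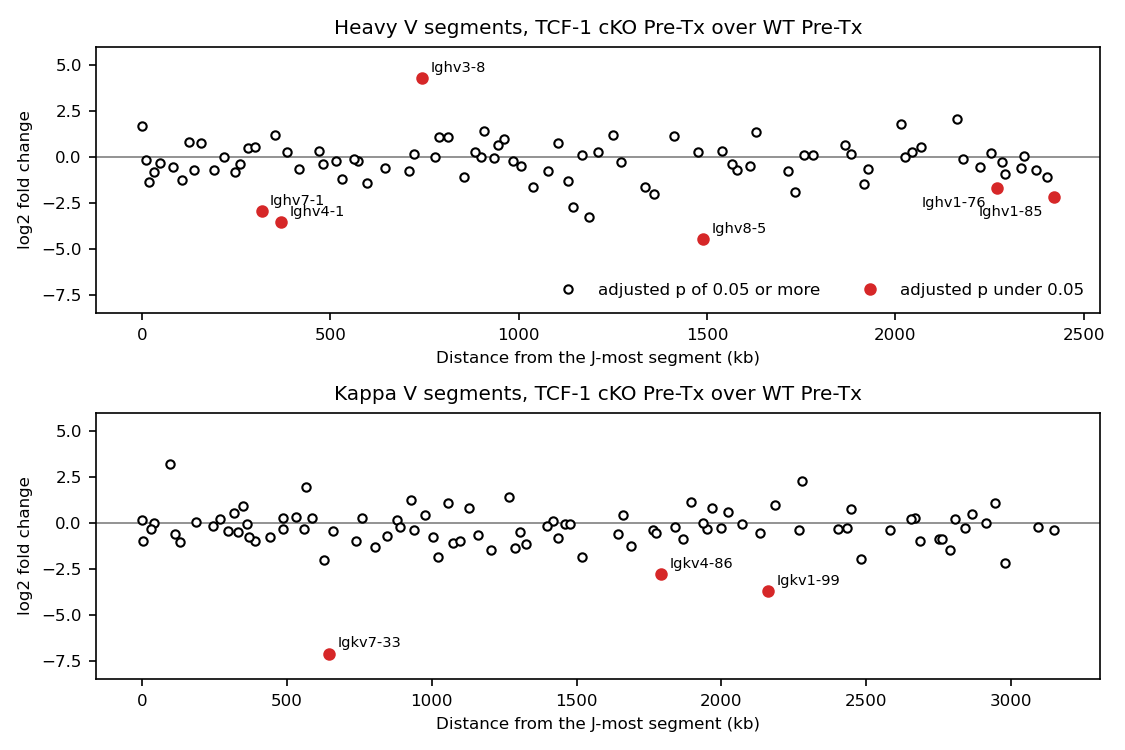
The log2 fold change of TCF-1 cKO over WT before transplant for the 88 heavy (top) and 93 kappa (bottom) segments tested, against distance in kb from the segment nearest to J, with segments called at an adjusted p under 0.05 filled. Most segments lie near 0, and the called segments, among them Igkv7-33 at -7.11 and Ighv3-8 at 4.30, are scattered along both loci between segments that were not called.

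The number of calls depended on WT Pre-Tx replicate 1. Without it only 1 segment, Ighv8-5, was called by edgeR, with 30 at an unadjusted p under 0.05, and the share of all genes called dropped to 0.0787%. Igkv7-33 then had a log2 fold change of -6.99 (adjusted p = 0.056, edgeR) and Ighv4-1 of -3.03 (adjusted p = 0.0739, edgeR).

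At day 7, 63 segments passed the filter and 3 were called, 4.76% against 6.65% of all 19289 genes, with 1 higher in TCF-1 cKO (3.52% of all genes) and 2 lower (3.13%). Levels did not overlap for 12 of the 63, 19.0% against 37% of all genes. Ighv2-3, named after its values were seen, was higher in TCF-1 cKO Post-Tx, at 1.60, 3.37 and 0.779 CPM, and at 0 in all 3 WT Post-Tx libraries. Against a floor of 3 counts per library (0.0606 to 0.111 CPM) it was at least 23.4-fold higher (adjusted p = 0.0206, edgeR). Ighv7-1, lower in TCF-1 cKO before transplant too, had 0, 0 and 0.160 CPM in TCF-1 cKO Post-Tx, 3 counts in all, and 0.404, 3.98 and 1.98 CPM in WT Post-Tx (adjusted p = 0.0335, edgeR), a ratio of 35.5 with an exact 95% interval of 11.96 to 173 for counting error. Igkv16-104, the segment that led TCF-1 cKO Pre-Tx replicate 1, had 0.666, 1.52 and 0.481 CPM for TCF-1 cKO Post-Tx compared with 3.27, 5.72 and 8.09 CPM for WT Post-Tx, with no overlap (log2 fold change -3.08, standard error 0.76, adjusted p = 0.0312, edgeR). Without TCF-1 cKO Post-Tx replicate 2 or without WT Post-Tx replicate 1 no segment was called by edgeR (0.0296% and 0.3% of all genes). Of 89 and 94 segments tested, 16 and 23 had an unadjusted p under 0.05. There were 15 calls of 95 segments without WT Post-Tx replicate 2 (15% of all genes). Without WT Post-Tx replicate 3 there were 7 of 88 (1.51%). The call for Ighv7-1 was also lost without TCF-1 cKO Post-Tx replicate 1 (adjusted p = 0.0581, edgeR), and that for Igkv16-104 without any 1 library but WT Post-Tx replicate 2 (adjusted p 0.05001 to 0.141, edgeR). With upper quartile scaling both calls were lost (adjusted p = 0.0543 and 0.0577, edgeR), and with all 12 libraries in 1 fit that for Igkv16-104 (adjusted p = 0.0637, edgeR).

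Segments group into families by sequence. The largest heavy family, Ighv1 with 53 segments, took 46.4% to 52.2% of heavy counts in all 6 Pre-Tx libraries and 26.7% to 53.4% in Post-Tx. The largest kappa family, Igkv4 with 26 segments, took 9.92% to 15.7% in Pre-Tx and 15.4% to 29.9% in Post-Tx, while Igkv6 with 9 segments took 13.8% to 26.2% in Pre-Tx and 1.12% to 13.0% in Post-Tx. Igkv6 was lower in every TCF-1 cKO Pre-Tx library (15.8%, 13.8% and 17.2%) than in WT Pre-Tx (21.8%, 19.6% and 26.2%). Ighv8, the family of Ighv8-5, was likewise at 4.59%, 2.51% and 2.11% against 7.58%, 6.12% and 4.68% (p = 0.1 for each, exact permutation, adjusted p = 0.432). Over 36 families and 3 comparisons (108 tests) no family passed, with 0.090 as the lowest adjusted p. The comparisons of 3 against 3 libraries could not pass, since their p cannot go below 0.1. The 0.090 came from the stage comparison at its smallest possible p of 0.005. That no family passed is thus largely set by the design.

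Along the locus, which spans 2.42 Mb on chromosome 12 for heavy and 3.15 Mb on chromosome 6 for kappa segments in GRCm38, use before transplant reached both ends. The 38 heavy segments nearest to J took 32.4% ± 1.24 of heavy counts in WT Pre-Tx and 27.7% ± 4.57 in TCF-1 cKO Pre-Tx, and the 37 farthest took 39.8% ± 2.52 and 39.8% ± 8.31 (SD, n = 3). After transplant the farthest 37 took 15.6% ± 7.84 in WT and 21.4% ± 7.25 in TCF-1 cKO (SD, n = 3), a difference of -21.3 percentage points from Pre-Tx (p = 0.005, exact permutation over 400 arrangements, adjusted p = 0.090 over 18 tests). For kappa the 33 farthest segments took 34.6% ± 2.21 in WT Pre-Tx and 43.9% ± 3.41 in WT Post-Tx, and 40.0% ± 10.1 and 38.4% ± 6.34 in TCF-1 cKO (SD, n = 3).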

How the data were processed

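Total RNA of the sorted cells was amplified with a full-length cDNA kit, and per the labels the authors used kallisto 0.46.2 and limma and named the build mm9. The authors deposited estimated counts and TPM for 117497 transcripts in each of 12 libraries. The identifiers of 116428 transcripts matched GENCODE M21 (GRCm38), whose coordinates are given. Estimated counts were summed per gene and rounded for count tests. Where segments share sequence, kallisto divides reads between them by likelihood. Members, marker lists and tests were chosen with earlier results of these data known. edgeR 4.0.16 (quasi-likelihood test, TMM, filterByExpr, Benjamini-Hochberg adjustment over all genes tested) compared genotypes within a stage. Sums, ratios and effective numbers were compared by exact two-sided permutation, with stage permuted within genotype. Named segments were the 5 heavy and 5 kappa segments of largest mean share in each group, those over 10% in a library, up to 5 called in each direction with a mean of at least 10 CPM and no overlap, and Ighv3-8 and Igkv7-33. Neighbours and near copies were added for those named. Alternatives used DESeq2 1.42.0, limma 3.58.1 and log2(TPM + 1).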

Additional observations from a re-analysis of the deposited data

Results flagged for a closer look

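For 9 named segments the genotype difference itself differed between the stages, by the interaction term of edgeR's quasi-likelihood test with Benjamini-Hochberg adjustment over 21434 genes, 28.6% of which passed. The values are log2 fold changes of TCF-1 cKO over WT at day 7 minus those before transplant. They were lower at day 7 for Ighv3-8 (-11.07, adjusted p = 0.0035), Igkv14-100 (-6.87, adjusted p = 0.0274) and Igkv16-104 (-5.30, adjusted p = 0.00488). They were higher for Ighv4-1 (4.97, adjusted p = 0.0117), Ighv8-5 (4.36, adjusted p = 0.0299), Igkv7-33 (3.98, adjusted p = 0.0423), Igkv6-32 (3.89, adjusted p = 0.0337), Igkv6-15 (3.74, adjusted p = 0.0395) and Ighv1-78 (3.65, adjusted p = 0.0484), all by edgeR. Of all 190 segments tested 31 passed, 16.3% against 28.6% of all genes, and 25 of the 31 were higher at day 7. The median value was 1.10 over the segments tested and 0.37 over all genes, thus above 0 for both. In the fit of the day 7 libraries alone 63 segments passed the filter, so that most of the 190 had few counts there. A segment lower in TCF-1 cKO before transplant and near 0 in both genotypes after it has a value above 0 for that reason alone. Ighv3-8, Ighv8-5, Igkv7-33 and Ighv4-1 were also among those named for their difference before transplant. The count, direction and median over members are therefore not read as a result about the segments. Ighv3-8 was at 0 in all TCF-1 cKO Post-Tx libraries, and such a fitted value depends on the prior count and is no bound. Igkv6-32 was also near 0 at day 7, where the genotypes overlapped. It had 0.666, 0.0433 and 0.534 CPM in TCF-1 cKO and 0.0606, 0.221 and 0 CPM in WT. Its difference before transplant had missed the threshold.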

How the results depend on the processing

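The number of segments called before transplant, 9 of 181, was 18 of 181 with upper quartile scaling, where 15.9% of all genes were called. DESeq2 gave 21 of 211 (15.5% of all genes) and limma on log2(TPM + 1) gave 19 of 196 (15.1%). Without a filter there were 24 of 211 (10.9%), and leaving out 1 library gave 1 to 10 (0.0787% to 13.9%). At day 7 the 3 calls of 63 segments tested became 1 of 63 with upper quartile scaling (4.14% of all genes called). DESeq2 gave 14 of 209 (12.6%) and limma on log2(TPM + 1) gave 9 of 114 (5.36%). Without a filter there were 18 of 209 (6.71%), and with all 12 libraries in 1 fit 5 of 190 (0.639%). Leaving out 1 library gave 0 to 15 calls (0.0296% to 15%). With the replicate number as a block there were 7 calls before transplant and 6 at day 7 (12.1% and 16.9% of all genes). The block ended the calls for Ighv3-8 and Igkv1-99 before transplant (log2 fold changes 2.71 and -2.53, adjusted p = 0.0764 and 0.0798, edgeR). Libraries of the same number did not deviate together at every number (r 0.028, -0.090 and 0.029 before transplant, 0.0094, 0.284 and 0.116 at day 7), so the numbers were not taken as pairs. Differences of TCF-1 cKO minus WT near 0 changed sign. Before transplant that of the heavy level was 0.25 from TPM, and leaving out 1 library gave -0.20 to 0.10 for the heavy level, -0.16 to 0.22 for the kappa level and -0.0502 to 0.19 for the kappa to heavy ratio. At day 7 that of the kappa level was -0.22 with TMM factors, that of V segments per B cell marker -0.48 to 0.23 leaving out 1 library, and that of the heavy effective number -0.0174 over families. The heavy effective number fell by 0.315 over families with transplant (p = 0.495, exact permutation), and by leaving out 1 library its difference was -20.1 to -15.3, while that of the kappa to heavy ratio was -0.40 to -0.21. The causes were not tested. Leaving out the largest segment and taking off the pseudogene level were chosen after seeing the data. Single segments at day 7 rested on 1831 to 5159 kappa and 911 to 2637 heavy counts per library, which limits what could be tested there.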
